A study of Rattus norvegicus with 15 samples.

Results

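This set holds 35 genes of glycolysis and of the response to low oxygen, taken by symbol from a table of 23342 genes. Each of the 35 symbols was found in the table, and 34 of them had enough counts to be tested. RNA was sequenced from synovial tissue, the lining of the joint, of 15 rats labelled as wild type (WT). The CON group held 5 rats that were left untreated. The AIA group held 5 rats with adjuvant-induced arthritis, for which the tail skin received Complete Freund's Adjuvant in a volume of 100 uL. The Ab group held 5 AIA rats that were also given an anti-cANGPTL4 antibody into the peritoneum 2 times per week. No vehicle or isotype antibody is named for the AIA group, so the comparison of Ab with AIA holds the antibody and its injection together. The labels used here give no strain, sex, age or day of sampling, and the title of Ab replicate 21_8 carries a pair of numbers, which was taken as 1 rat.

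Glycolysis turns glucose into pyruvate in the cytosol, and lactate dehydrogenase turns pyruvate into lactate, which leaves the cell through monocarboxylate transporters. In normal oxygen the prolyl hydroxylases Egln1 and Egln3 mark the alpha subunits Hif1a and Epas1 for destruction through Vhl; in low oxygen the alpha subunits pair with Arnt and switch on genes of glycolysis, pH control and collagen hydroxylation. Inflamed synovium is known as a tissue of low oxygen and high glucose use. HIF alpha subunits are controlled largely as proteins, which RNA counts do not show.

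Each library held between 31172215 and 34084345 counts over all genes. Levels are given as CPM, counts scaled to a common library total, after trimmed-mean (TMM) scaling, and differences as log2 fold changes with a standard error (SE). Values listed by library follow the order of replicates 2, 7, 11, 14 and 17 for CON, 5, 13, 18, 19 and 23 for AIA, and 3, 9, 10, 12 and 21_8 for Ab. The synovial lining marker Prg4 stood between 2714 and 11205 CPM and the macrophage marker Cd68 between 33.9 and 110.2 CPM over the 15 libraries, so the labelled tissue was present in each. CON 2 and AIA 19 stood apart by skeletal muscle genes, which took 0.893% and 1.74% of their counts, against 0.00200% to 0.00631% in the other 13 libraries. Skeletal muscle is rich in glycolytic enzymes, so calls are also given without both libraries, as are the fold changes that moved most when they were left out.

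Few members of the set were called between the groups by edgeR. In AIA against CON, 1 of the 34 tested members was called higher (2.94%), against 5.09% of all genes tested, and 0 were called lower, against 3.45% of all genes (edgeR quasi-likelihood test, adjusted p under 0.05). DESeq2 also called 0 members lower, against 3.92% of all genes, and 2 members had an unadjusted edgeR p under 0.05 in that direction. In either direction 3 of the 34 members had such a p, against 3393 of all 16046 genes tested. In Ab against AIA, 1 member was called higher, against 1.83% of all genes, and 1 was called lower, against 3.99%, where DESeq2 called 4 lower, against 7%. In Ab against CON, 0 members were called higher, against 3.38% of all genes, where DESeq2 called 4, against 5.25%. An unadjusted edgeR p under 0.05 was found for 9 of the 34 members, 6 of them higher in Ab. In either direction 3798 of all 16046 genes tested had such a p. In the same comparison 2 members were called lower (5.88%), against 4.66% of all genes. The edgeR shares lie near or under those over all genes, and the DESeq2 counts of 4, as shares of the members, lie above them. Its other counts above 0 were 2 higher in AIA against CON, 1 higher in Ab against AIA and 2 lower in Ab against CON. Over all genes these shares were 6.38%, 3.66% and 6.41%, and those of the members lie under them. The 3 comparisons share libraries and are not independent of each other.

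The members also showed no common direction. The median log2 fold change of the 34 was 0.06 in AIA against CON, -0.01 in Ab against AIA and -0.02 in Ab against CON. In these comparisons 20, 15 and 16 members lay above 0 and 14, 19 and 18 below it. Without CON 2 and AIA 19 the medians were 0.02, 0.04 and 0.04, with 21, 18 and 21 members above 0 and 13, 16 and 13 below, so the sign of the median and the majority turned in both comparisons with Ab. In AIA against CON 33 of the 34 members differed by less than 1.5-fold, Hif1a being the exception. Pfkm, Ldhb, Pdk1 and P4ha2 differed by more in Ab against AIA, and Pfkm, Eno2 and Ldhb in Ab against CON. Without CON 2 and AIA 19, Eno2 and Ldhb in Ab against CON were the members over 1.5-fold in any comparison. The share of all genes over 1.5-fold was not counted, so these counts do not set the members apart from other genes. The called members were Hif1a in AIA against CON, Pdk1 and Eno2 in Ab against AIA, and Eno2 and P4ha1 in Ab against CON. Without CON 2 and AIA 19, 0 members were called in AIA against CON and in Ab against AIA, where 3.55% and 1.36% of all genes were still called, and Eno2 was the 1 member called in Ab against CON, against 4.69%.

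**Figure D1:**
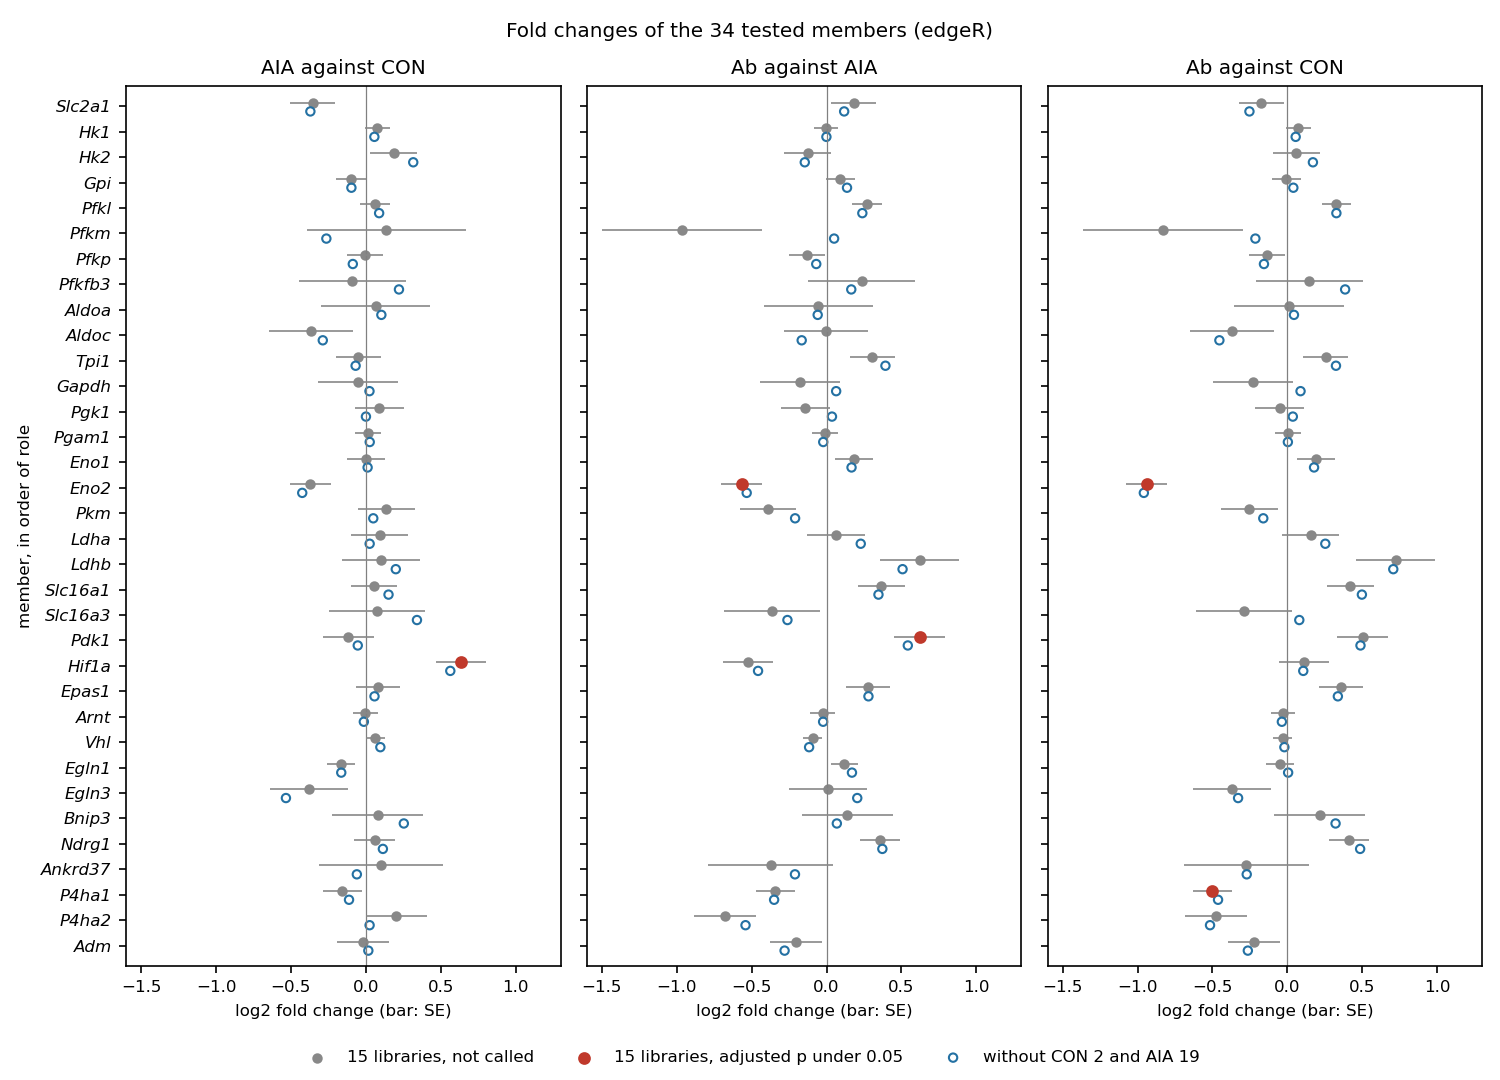
Log2 fold change of each tested member in the 3 comparisons, ordered by role, with bars of 1 SE. Filled points are the fit of all libraries, red where the member passed the adjusted threshold and grey where it did not. Open points are the fit without both muscle libraries. Most points lie close to 0, and Eno2 in Ab against CON is the lowest of the called members, at -0.94.

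By level per gene length, the enzymes of the central pathway led the set. Mean FPKM, the count scaled by gene length and library total, over the 15 libraries was 332 for Gapdh, 204 for Ldha, 188 for Eno1 and 185 for Tpi1. Epas1, at 147 FPKM, was the most abundant of the oxygen-sensing members, and Hif1a stood at 24.8 FPKM. Alternative forms of a step differed widely in level, with Hk1 at 21.6 and Hk2 at 5.61 FPKM, Eno1 at 188 and Eno2 at 11.3 FPKM, and Slc16a1 at 14.9 and Slc16a3 at 2.78 FPKM. Car9, a carbonic anhydrase at the cell surface and a known target of HIF, was lowest at 0.146 FPKM. Genes with many processed copies are uncertain in level, since reads can be split among copies. RefSeq (GRCr8) lists 91 genes named after Gapdh, 34 after Eno1, 31 after Ldha, 20 after Pkm and 13 after Pgam1, and 10 members have 5 or more.

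The glucose transporter and the hexokinases, which bring glucose in and trap it as a phosphate, did not pass the test in any comparison. Slc2a1, the glucose transporter GLUT1, stood at 23.5, 31.1, 41.6, 27.2 and 28.5 CPM in CON. It stood at 24.6, 27.1, 21.97, 19.5 and 25.6 CPM in AIA and at 19.9, 30.7, 27.2, 30.4 and 26.6 CPM in Ab. The ranges of all 3 groups overlap, and CON 11 is the highest library. The log2 fold change was -0.35 ± 0.15 SE in AIA against CON (edgeR adjusted p = 0.176), 0.18 in Ab against AIA and -0.17 in Ab against CON. Hk1, the housekeeping hexokinase, kept to between 79.5 and 111 CPM over all libraries, and Hk2, the form known as inducible, to between 15.5 and 28.1 CPM. Their log2 fold changes lay between -0.13 and 0.19 in the 3 comparisons, and that of Hk2 in AIA against CON was 0.32 without CON 2 and AIA 19.

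In upper glycolysis, from the isomerase Gpi to Tpi1, 0 of 8 members were called in any comparison by edgeR, against 8.54%, 5.83% and 8.05% of all genes in either direction in AIA against CON, Ab against AIA and Ab against CON. At such shares 8 genes are too few for a count of 0 to describe them, and DESeq2 called Pfkl. Pfkl, the liver form of phosphofructokinase, which commits sugar to glycolysis, had the smallest adjusted p, with 0.33 ± 0.10 SE in Ab against CON (edgeR adjusted p = 0.0542; DESeq2 adjusted p = 0.0284). Its Ab libraries stood at 72.96, 99.1, 102, 95.5 and 100.1 CPM and its CON libraries at 74.7, 76.6, 81.6, 72.2 and 68.9 CPM. Only Ab 3 lies inside the CON range, and without it the difference passed, at 0.41 (edgeR adjusted p = 0.0139). Pfkp, the platelet form, ranged from 29.1 to 44.0 CPM and did not differ beyond its spread.

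Pfkm, the muscle form of phosphofructokinase, was high in the libraries with muscle genes. It stood at 173, 44.4, 55.3, 46.4 and 43.3 CPM in CON, at 40.4, 33.1, 41.9, 241 and 42.3 CPM in AIA and at 38.6, 40.2, 48.3, 39.5 and 37.6 CPM in Ab. CON 2 and AIA 19 are the high libraries, and the remaining ones lie between 33.1 and 55.3 CPM. The log2 fold change in Ab against AIA was -0.97 ± 0.54 SE with all libraries (edgeR adjusted p = 0.299) and 0.05 without AIA 19 alone, so its sign rested on that library. In Ab against CON it went from -0.83 to -0.21 without CON 2. In AIA against CON it was 0.14 with all libraries, -0.88 without AIA 19 alone, 0.75 without CON 2 alone and -0.26 without both.

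Pfkfb3 makes the sugar phosphate that activates phosphofructokinase and is a known target of HIF. It stood at 646, 275, 266, 264 and 549 CPM in CON, at 521, 669.8, 227, 301 and 161 CPM in AIA and at 455, 376, 330.4, 498 and 553 CPM in Ab. It varied more within the CON and AIA groups than between groups, from 264 to 646 CPM in CON and from 161 to 670 CPM in AIA. The log2 fold changes were -0.09 ± 0.36, 0.24 ± 0.36 and 0.15 ± 0.36 SE in AIA against CON, Ab against AIA and Ab against CON, and none passed (edgeR adjusted p = 0.927, 0.754 and 0.849). The first was 0.22 and the third 0.39 without CON 2 and AIA 19, neither called.

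The aldolase rows were low. Aldoa, the aldolase that is abundant in most tissues, was listed at 0.288 to 1.19 CPM. In RefSeq (GRCr8) the protein-coding gene LOC103691235 starts at the same base and overlaps it, and that row too was low, at 0.309 to 1.38 CPM. The Aldoa row therefore cannot be read as the level of aldolase A, and it was not raised in the libraries with muscle genes either. Aldoc, the form known from brain, ranged from 1.56 to 5.71 CPM. Gpi and Tpi1 had log2 fold changes between -0.10 and 0.31, none called.

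In lower glycolysis, from Gapdh to Pkm, the main forms of the enzymes did not pass the test and the minor enolase Eno2 did. Gapdh, Pgk1, Pgam1, Eno1 and Pkm had log2 fold changes between -0.39 and 0.19 over the 3 comparisons. Of these 5 genes 0 were called by edgeR or DESeq2. Over all genes edgeR called 8.54%, 5.83% and 8.05% in AIA against CON, Ab against AIA and Ab against CON, and DESeq2 10.3%, 10.7% and 11.7%. At such shares 5 genes are too few for a count of 0 to describe them. Pgam1, a phosphoglycerate mutase, had the narrowest band among them, from 165 to 216 CPM. The largest of these differences was Pkm, pyruvate kinase of most tissues, at -0.39 ± 0.19 SE in Ab against AIA (edgeR adjusted p = 0.228), which was -0.21 without CON 2 and AIA 19. Leaving out both libraries also turned Gapdh from -0.23 to 0.09 in Ab against CON and from -0.18 to 0.06 in Ab against AIA, and Pgk1 from -0.14 to 0.04 in Ab against AIA.

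Eno2, the enolase known from neurons and neuroendocrine cells and also listed among the targets of HIF, fell from CON to Ab. It stood at 35.1, 33.9, 45.3, 35.4 and 35.2 CPM in CON, or 37.0 ± 4.69 (SD, n = 5). In AIA it stood at 21.2, 24.2, 37.4, 31.3 and 28.7 CPM, or 28.6 ± 6.32 (SD, n = 5). In Ab it stood at 16.4, 21.02, 18.4, 22.3 and 18.2 CPM, or 19.3 ± 2.38 (SD, n = 5). Every Ab library lies below every CON library, 4 of 5 AIA libraries lie below all of CON, and AIA 5 lies inside the Ab range. The log2 fold change in Ab against CON was -0.94 ± 0.14 SE, 1.92-fold lower (edgeR adjusted p = 0.00121). It was called in each of the 10 fits that left out 1 library, at adjusted p from 0.00191 to 0.00629, and in the 7 other alternatives. Without CON 2 and AIA 19 it was -0.96 (edgeR adjusted p = 0.00353). In Ab against AIA the log2 fold change was -0.57 ± 0.14 SE (edgeR adjusted p = 0.0309). That call was lost without both muscle libraries (adjusted p = 0.0924) and in 6 of the 10 fits without 1 library, those without AIA 18, AIA 19, AIA 23, Ab 3, Ab 10 or Ab 21_8. In AIA against CON it was -0.37 ± 0.14 SE and did not pass (edgeR adjusted p = 0.12), except without AIA 18 (adjusted p = 0.0425).

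In whole tissue, fewer cells that express a gene and less RNA per cell cannot be told apart. Markers of Schwann cells and nerve, a list added after the values of Eno2 were seen, had 12 of 12 genes in the table and 10 tested. Their mean log2 level relative to CON ranged from -0.15 to 0.12 in CON, from -0.38 to 0.36 in AIA and from -0.13 to -0.09 in Ab, and they took 0.114% to 0.129%, 0.0718% to 0.110% and 0.116% to 0.145% of the counts. The Ab libraries thus lay within the CON range by level and reached above it by share. By level AIA 18, 19 and 23 stood at 0.16, 0.12 and 0.36, above AIA 5 and 13 at -0.10 and -0.38. By share the order was reversed. Of the 10 tested, 3 were called lower in Ab against AIA (30%, against 3.99% of all genes). There 7 of the 10 had log2 fold changes above 0. In AIA against CON 3 were called lower (30%, against 3.45%) and 1 higher (10%, against 5.09%). Without CON 2 and AIA 19 these counts were 1, 0 and 1, against 1.08%, 1.48% and 2.07%. Macrophage markers, with 12 of 12 tested, ranged from -0.23 to 0.34 in CON, from -0.45 to 0.38 in AIA and from -1.09 to -0.13 in Ab. Fibroblast markers, with 12 of 12 tested, ranged from -0.43 to 0.55 in CON and from -0.82 to -0.45 in Ab. In AIA they split as Eno2 did. They stood at 1.24, 0.63 and 0.98 in AIA 18, 19 and 23 and at -0.34 and -0.23 in AIA 5 and 13. Of the 12 fibroblast markers 9 were called lower in Ab against AIA (75%, against 3.99% of all genes). Without CON 2 and AIA 19 this was 4 of 12 (33.3%, against 1.08% of all genes). The part of these markers in the difference of Eno2 was not tested. A long non-coding gene, LOC120102384, overlaps Eno2 in RefSeq, and strand-specific counting is not stated.

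**Figure D2:**
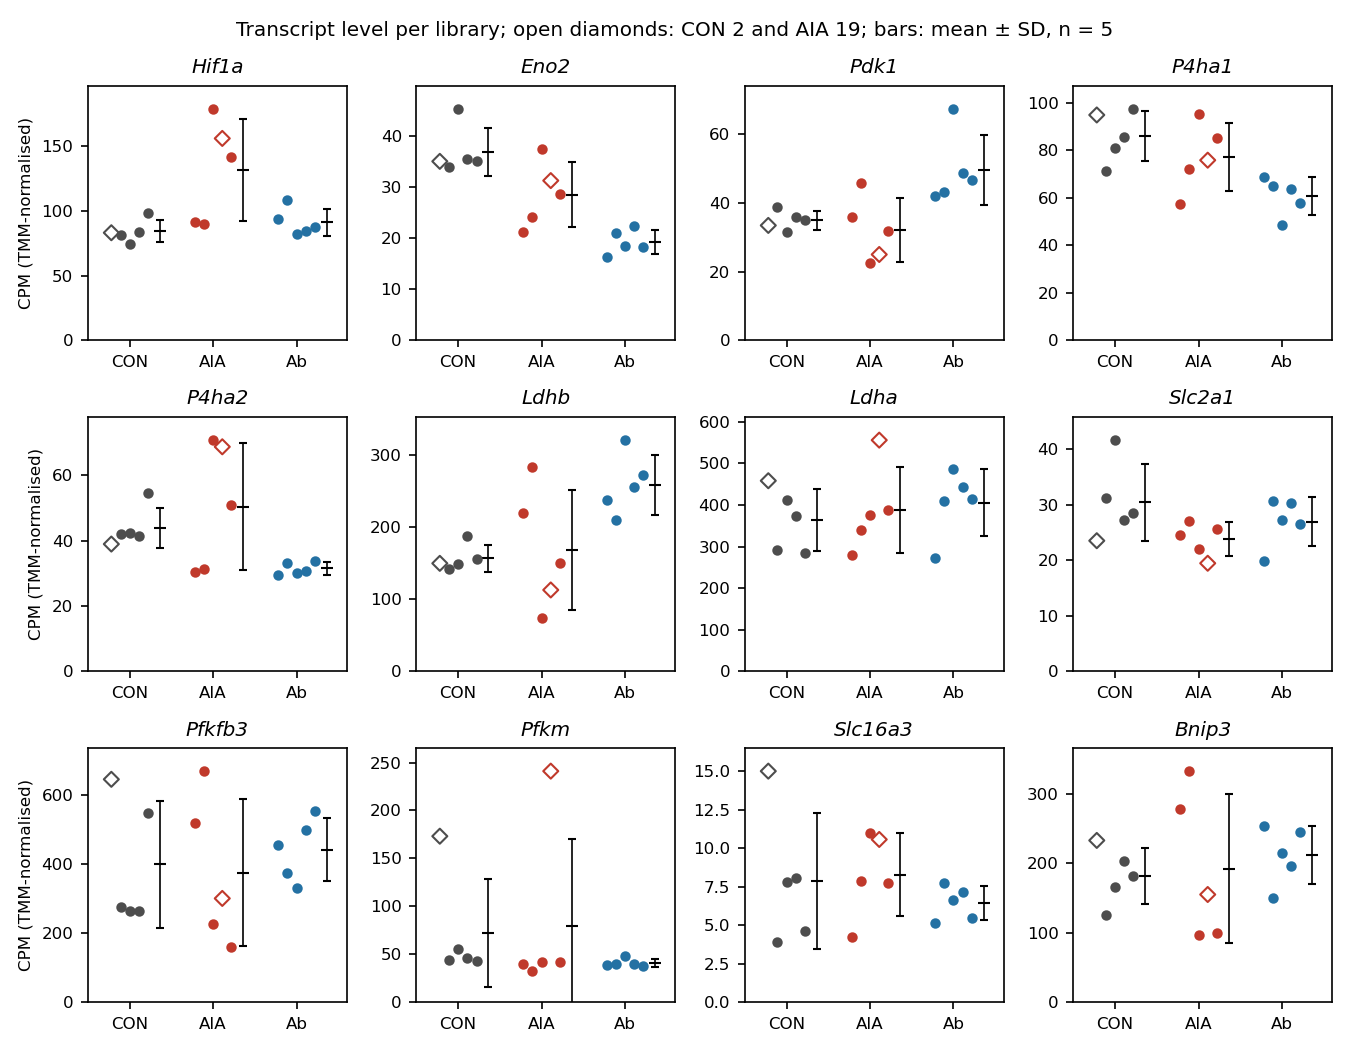
Level in CPM of the members described library by library, except Pfkl, Ankrd37 and Car9. There is 1 point per library in CON, AIA and Ab, with bars for the mean ± SD of 5 libraries. Diamonds mark CON 2 and AIA 19. The Ab points of Eno2, at 16.4 to 22.3 CPM, lie below all CON points, while Pfkm is high in both diamonds; the axes start at 0, which cuts the lower bar of Pfkm in AIA.

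Among the genes of lactate and pyruvate, Pdk1 was called in 1 comparison and the lactate dehydrogenase subunits in none. Ldha, the subunit known to favour lactate formation, stood at 458, 292, 411, 374 and 284 CPM in CON. It stood at 281, 339, 377, 556 and 388 CPM in AIA and at 272, 410.4, 487, 443 and 416 CPM in Ab. Its groups overlap widely, and its log2 fold changes were 0.09, 0.06 and 0.16 in AIA against CON, Ab against AIA and Ab against CON, none called; the second was 0.23 without CON 2 and AIA 19. Ldhb, the subunit known from heart and oxidative tissue, stood at 149.97, 142, 149, 189 and 156 CPM in CON. It stood at 221, 283, 74.7, 113 and 151 CPM in AIA and at 237, 209, 321, 255 and 273 CPM in Ab. Every Ab library lies above every CON library, and the AIA libraries span both, with AIA 18 and AIA 19 lowest. In Ab against CON the log2 fold change was 0.72 ± 0.26 SE and did not pass with 1 spread for all 3 groups (edgeR adjusted p = 0.105). It passed where only the CON and Ab libraries were fitted (adjusted p = 0.00294) and with DESeq2 (adjusted p = 0.0444).

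Pdk1, a kinase that inhibits pyruvate dehydrogenase, rose in Ab against AIA. It stood at 33.4, 38.6, 31.4, 35.97 and 35.03 CPM in CON, or 34.9 ± 2.73 (SD, n = 5). In AIA it stood at 35.8, 45.8, 22.5, 24.9 and 31.6 CPM, or 32.1 ± 9.29 (SD, n = 5), and in Ab at 41.9, 43.1, 67.1, 48.5 and 46.7 CPM, or 49.5 ± 10.2 (SD, n = 5). The Ab libraries all lie above CON, and AIA 13 lies inside the Ab range. The log2 fold change was 0.62 ± 0.17 SE in Ab against AIA (edgeR adjusted p = 0.0443) and 0.50 ± 0.17 SE in Ab against CON (adjusted p = 0.0832). The latter passed with DESeq2 (adjusted p = 0.0438) and where only the CON and Ab libraries were fitted (edgeR adjusted p = 0.0198). The call in Ab against AIA rested on several libraries, since it held in 3 of 10 fits without 1 library (those without AIA 5, AIA 13 or Ab 3) and was lost without both muscle libraries (adjusted p = 0.127). Fat tissue markers, with 8 of 8 tested, ranged from -0.40 to 0.23 in CON, from -1.24 to 0.52 in AIA and from 0.38 to 0.73 in Ab on the same log2 scale. They took 1.28% to 2.08%, 0.784% to 2.78% and 2.31% to 2.89% of the counts, so the Ab group lay above CON for these markers as it did for Pdk1 and Ldhb. AIA 18 and AIA 19, low in Ldhb and Pdk1, had the lowest fat marker levels of the AIA group, at -1.24 and -0.71. The part of these markers in either gene was not tested.

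The lactate transporters did not pass in any comparison. Slc16a1, the transporter MCT1, had 0.42 ± 0.16 SE in Ab against CON (edgeR adjusted p = 0.115). Slc16a3, the transporter MCT4 and a known target of HIF, stood at 14.9999, 3.92, 7.79, 8.04 and 4.61 CPM in CON. It stood at 4.27, 7.85, 10.99, 10.6 and 7.74 CPM in AIA and at 5.14, 7.77, 6.65, 7.14 and 5.46 CPM in Ab. CON 2 is its highest library, and without CON 2 and AIA 19 its log2 fold change in AIA against CON was 0.34 instead of 0.07 and in Ab against CON 0.08 instead of -0.29, none called.

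Among the oxygen-sensing members Hif1a alone was called. Hif1a, the alpha subunit of hypoxia-inducible factor 1, stood at 82.95, 81.5, 74.6, 83.7 and 98.4 CPM in CON, or 84.2 ± 8.70 (SD, n = 5). In AIA it stood at 91.02, 89.7, 178, 156 and 141 CPM, or 131 ± 39.5 (SD, n = 5). In Ab it stood at 93.3, 108, 82.2, 84.6 and 87.2 CPM, or 91.0 ± 10.3 (SD, n = 5). AIA 18, 19 and 23 lie above all other libraries, while AIA 5 and AIA 13 lie within the CON range. The log2 fold change was 0.64 ± 0.17 SE in AIA against CON, 1.56-fold higher (edgeR adjusted p = 0.027). It held in 3 of 10 fits without 1 library, at adjusted p from 0.00615 to 0.0717, and was lost without CON 2, 7, 11 or 14 and without AIA 18, 19 or 23. Without both muscle libraries it was 0.56 (edgeR adjusted p = 0.131). In Ab against AIA it was -0.53 ± 0.17 SE and did not pass (edgeR adjusted p = 0.0733), but DESeq2 called it (adjusted p = 0.0289), as did edgeR without AIA 5 or AIA 13. In Ab against CON it was 0.11 ± 0.17 SE (edgeR adjusted p = 0.732).

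Fibroblast markers and tendon and cartilage markers split the AIA group as Hif1a did. Those of Schwann cells and nerve, given beside Eno2, did so by mean level and went the other way by share. The fibroblast markers, given beside Eno2, were high by their mean in AIA 18, 19 and 23. The list took 1.76% to 2.48%, 1.46% to 4.73% and 1.03% to 1.34% of the counts in CON, AIA and Ab. It was mixed in AIA against CON, with 4 of 12 called higher and 2 lower, against 5.09% and 3.45% of all genes. Without CON 2 and AIA 19, 0 were called higher and 1 lower, against 2.07% and 1.48% of all genes. Prg4, which is in the list, stood at 5602 to 11205 CPM in CON and at 2714 to 5691 CPM in AIA. Tendon and cartilage markers, with 7 of 8 tested, stood at 3.19, 1.54 and 1.83 in AIA 18, 19 and 23 and at -0.89 and -1.09 in AIA 5 and 13, with -1.03 to 0.96 in CON and -1.29 to -0.22 in Ab. They took 0.0199% to 0.0401%, 0.0148% to 0.136% and 0.0101% to 0.0159% of the counts. T and NK cell markers, with 10 of 11 tested, ranged from -0.60 to 0.47 in CON, from 1.51 to 2.36 in AIA and from 0.39 to 0.73 in Ab, and took 0.0302% to 0.0427%, 0.0238% to 0.0363% and 0.0150% to 0.0301% of the counts. Neutrophil markers, with 9 of 10 tested, ranged from -1.11 to 1.61, from 1.60 to 3.79 and from 1.81 to 4.20, and took 0.00703% to 0.0163%, 0.0108% to 0.0431% and 0.0212% to 0.0580% of the counts. No marker of these lists in the table was at 0 over all 15 libraries together. Whether a marker was at 0 in a single library was not counted. The part of these lists in the level of Hif1a was not tested. A long non-coding gene, LOC120103553, overlaps Hif1a in RefSeq, so its reads may be counted in part with it.

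The partners and regulators of Hif1a did not pass the test in any comparison. Epas1, the second alpha subunit, ranged from 580 to 1107 CPM, with 0.36 ± 0.15 SE in Ab against CON (edgeR adjusted p = 0.157). Arnt, the shared partner, ranged from 68.8 to 91.6 CPM, and Vhl, part of the ligase that marks the alpha subunits, from 41.6 to 52.3 CPM, with log2 fold changes between -0.09 and 0.06. Egln1, the main oxygen sensor among the prolyl hydroxylases, had -0.17 ± 0.09 SE in AIA against CON (edgeR adjusted p = 0.333). Egln3, a hydroxylase that is itself a target of HIF, had -0.38 ± 0.26 SE (adjusted p = 0.46), or -0.53 without CON 2 and AIA 19, not called.

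The remaining hypoxia-response members were led by the collagen prolyl hydroxylases. P4ha1, a catalytic subunit of collagen prolyl hydroxylase, stood at 94.8, 71.5, 80.8, 85.5 and 97.3 CPM in CON, or 86.0 ± 10.5 (SD, n = 5). In AIA it stood at 57.3, 71.97, 95.4, 75.8 and 85.4 CPM, or 77.2 ± 14.4 (SD, n = 5), and in Ab at 68.7, 64.9, 48.6, 63.9 and 57.98 CPM, or 60.8 ± 7.85 (SD, n = 5). Every Ab library lies below every CON library, and the AIA group overlaps both. Between CON and Ab it fell by 0.50 ± 0.13 SE on the log2 scale (edgeR adjusted p = 0.0284). The call held in 5 of 10 fits without 1 library and was lost without CON 2, 14 or 17, without Ab 10 or 21_8 and without both muscle libraries (adjusted p = 0.083).

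P4ha2, the second such subunit, stood at 38.98, 42.1, 42.3, 41.3 and 54.5 CPM in CON. It stood at 30.4, 31.3, 70.8, 68.7 and 50.96 CPM in AIA and at 29.5, 33.3, 30.1, 30.8 and 33.8 CPM in Ab. Its Ab libraries lie below all of CON, and its AIA group is split, with AIA 5 and 13 near Ab and AIA 18, 19 and 23 as high as or higher than most of CON. These are the same 3 AIA libraries in which Hif1a and the fibroblast, tendon and cartilage markers were high. The log2 fold change was -0.68 ± 0.20 SE in Ab against AIA (edgeR adjusted p = 0.0616; DESeq2 adjusted p = 0.0188) and -0.48 ± 0.20 SE in Ab against CON (edgeR adjusted p = 0.169). The first passed without AIA 5 or without AIA 13 (edgeR adjusted p = 0.0114 and 0.0147), and the second where only the CON and Ab libraries were fitted (adjusted p = 0.00732). The fibroblast markers, whose genes include collagens that these enzymes modify, were also below all CON libraries in Ab, and their part in P4ha1 and P4ha2 was not tested.

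Of the other targets, Bnip3, which acts in the removal of mitochondria, stood at 233, 126, 167, 203 and 182 CPM in CON. It stood at 279, 333, 96.4, 155 and 100.02 CPM in AIA and at 254, 151, 215, 196 and 244 CPM in Ab. AIA 5 and AIA 13 are its highest libraries and AIA 18 and AIA 23 its lowest of all 15, while Hif1a was low in AIA 5 and 13 and high in AIA 18 and 23. Its log2 fold changes were 0.08, 0.14 and 0.22, none called, and the first was 0.25 without CON 2 and AIA 19. Ndrg1, a stress-response gene, had 0.41 ± 0.13 SE in Ab against CON (edgeR adjusted p = 0.0726; DESeq2 adjusted p = 0.0346). Adm, the vessel-widening peptide adrenomedullin, ranged from 7.54 to 14.9 CPM, with no call.

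Ankrd37, a small gene used as a marker of low oxygen, stood at 1.21, 0.531, 0.802, 1.51 and 1.95 CPM in CON. It stood at 0.537, 0.512, 1.98, 1.84 and 1.57 CPM in AIA and at 1.05, 1.23, 1.22, 0.739 and 0.729 CPM in Ab. At these low levels the groups overlap throughout, and its log2 fold change in AIA against CON was 0.10, or -0.06 without CON 2 and AIA 19. Car9 was the 1 member removed as too low for the edgeR test. It had 8, 4, 4, 1 and 6 counts in CON, 4, 3, 53, 18 and 25 in AIA, and 1, 3, 6, 3 and 8 in Ab. AIA 18, 19 and 23 hold more counts than any other library. DESeq2, which tested it, gave 2.25 in AIA against CON (adjusted p = 0.0324) and -2.31 in Ab against AIA (adjusted p = 0.0294) on the log2 scale, where it called 6.38% of all genes higher and 7% lower.

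**Figure D3:**
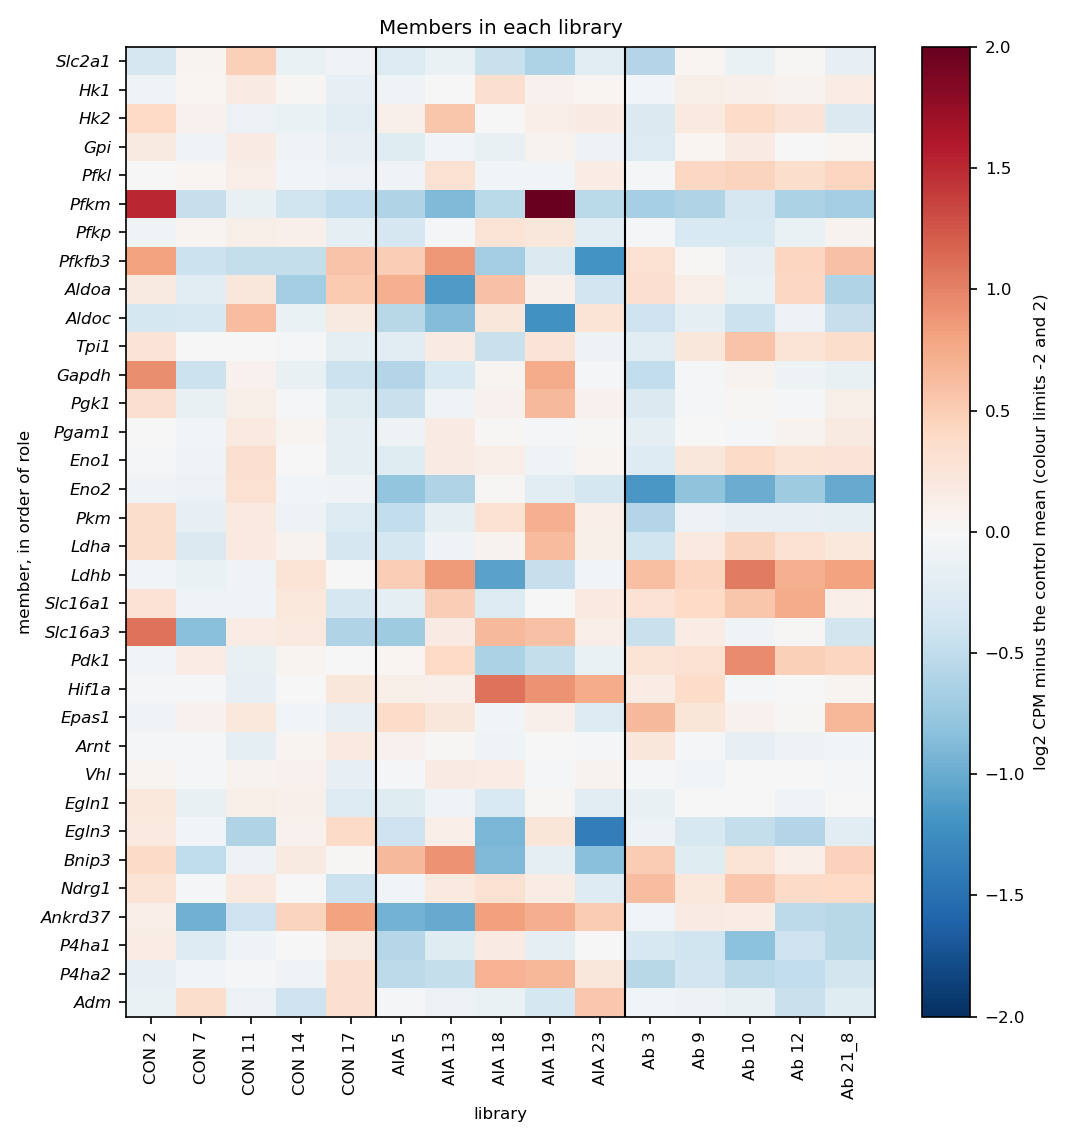
Log2 CPM of each tested member in each library relative to the mean of CON, with members ordered by role and libraries by group and colours running from -2 to 2. AIA 18 and 23 differ from AIA 5 and 13 in many members, among them Hif1a, P4ha2, Bnip3 and Ldhb.

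The AIA group was the most uneven for these genes. The SD of log2 CPM was widest in AIA for 20 of 34 members (58.8%), against 47.8% of all genes tested. The median SD of the members was 0.21 in CON, 0.33 in AIA and 0.19 in Ab, and over all genes it was 0.20, 0.25 and 0.20. Without CON 2 and AIA 19 it was again widest in AIA for 20 of 34 members, against 47.3% of all genes.

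Part of the glycolytic set was highest in the libraries with muscle genes. Ckm, the muscle creatine kinase, stood at 1302 CPM in CON 2 and 2211 CPM in AIA 19, against at most 4.31 CPM elsewhere, with Acta1, skeletal actin, at 1706 and 3530 CPM and Myh4, a fast myosin, at 2454 and 4301 CPM. Relative to the median of the other 4 libraries of the group, Pfkm stood 3.82-fold higher in CON 2 and 5.86-fold in AIA 19. For Gapdh this was 2.33-fold and 1.86-fold, for Pkm 1.39-fold and 1.65-fold, for Pgk1 1.34-fold and 1.57-fold, and for Ldha 1.38-fold and 1.55-fold. Gpi, Tpi1 and Egln1 too were highest of their group in both libraries, which makes 8 members in all. Eno1 and Pgam1 were not raised, at 1.01-fold and 0.90-fold and at 1.004-fold and 0.96-fold. Pgam2 and Eno3, the muscle forms of these steps, stood at 120 and 122 CPM and at 292 and 404 CPM in CON 2 and AIA 19, against at most 2.69 and 11.6 CPM elsewhere.

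**Figure D4:**
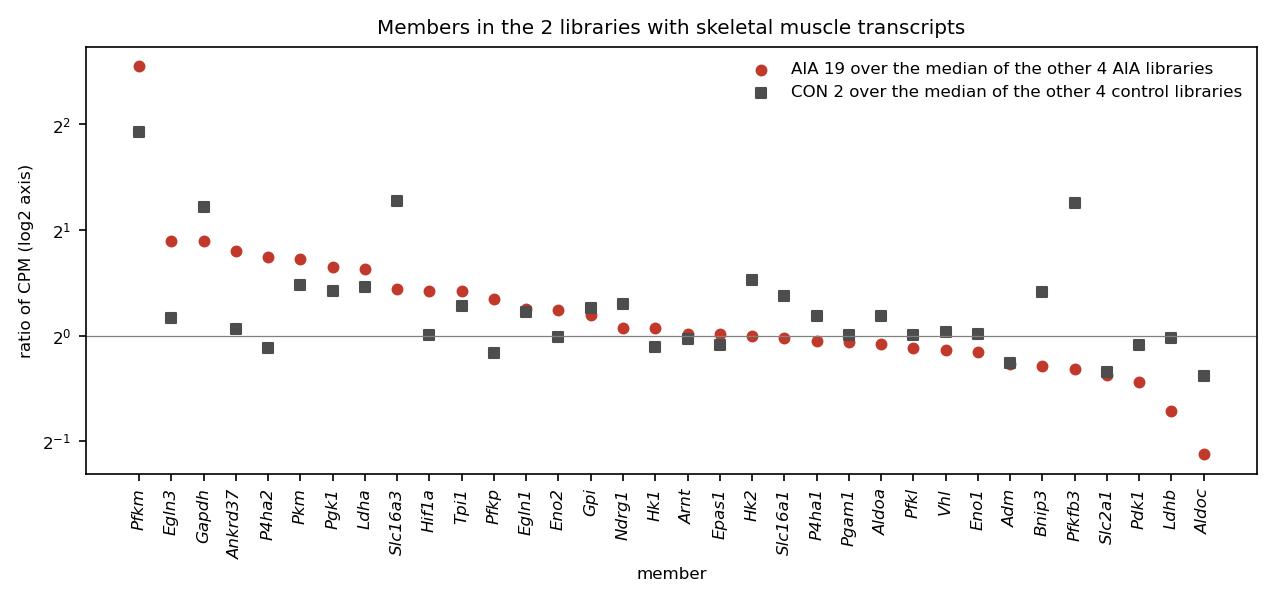
Level of each tested member in CON 2 and in AIA 19 as a ratio to the median of the other 4 libraries of its group, on a log scale. Pfkm is farthest from 1, at 3.82 and 5.86, and Eno1 and Pgam1 lie close to 1.

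Ratios between alternative forms of a step compare genes within a library. Of 8 ratios and 24 tests, none passed after adjustment (exact permutation of 5 and 5 libraries, for which 0.00794 is the smallest possible p). The share of Eno2 in the summed FPKM of Eno1 and Eno2 was 7.44% to 8.29% in CON, 4.63% to 7.16% in AIA and 3.06% to 4.20% in Ab. The 3 ranges do not overlap. The log2 ratio of Eno2 to Eno1 was -3.59 ± 0.07 in CON, -3.99 ± 0.27 in AIA and -4.70 ± 0.20 in Ab (SD, n = 5). Each of the 3 pairs of groups gave the smallest p the design allows, 0.00794 (two-sided exact permutation test), and 0.0635 after adjustment over the 24 tests. With 5 libraries a group these ratios could go no lower in raw p, so missing the threshold here says little. The log2 ratio of Ldha to Ldhb was 0.56 lower in Ab than in CON (two-sided exact permutation p = 0.0159, adjusted p = 0.0952). Without CON 2 and AIA 19 this difference was -0.46. In AIA the linear ratio of Ldha to Ldhb ran from 0.902 to 3.80, with AIA 19 at 3.70. In CON it ran from 1.37 to 2.30, with CON 2 highest. Eno1 and Ldha have many named copies, so the ratios with them are as uncertain as their levels. The log2 ratio of Hif1a to Epas1 differed by 0.52 between AIA and CON (two-sided exact permutation p = 0.151).

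**Figure D5:**
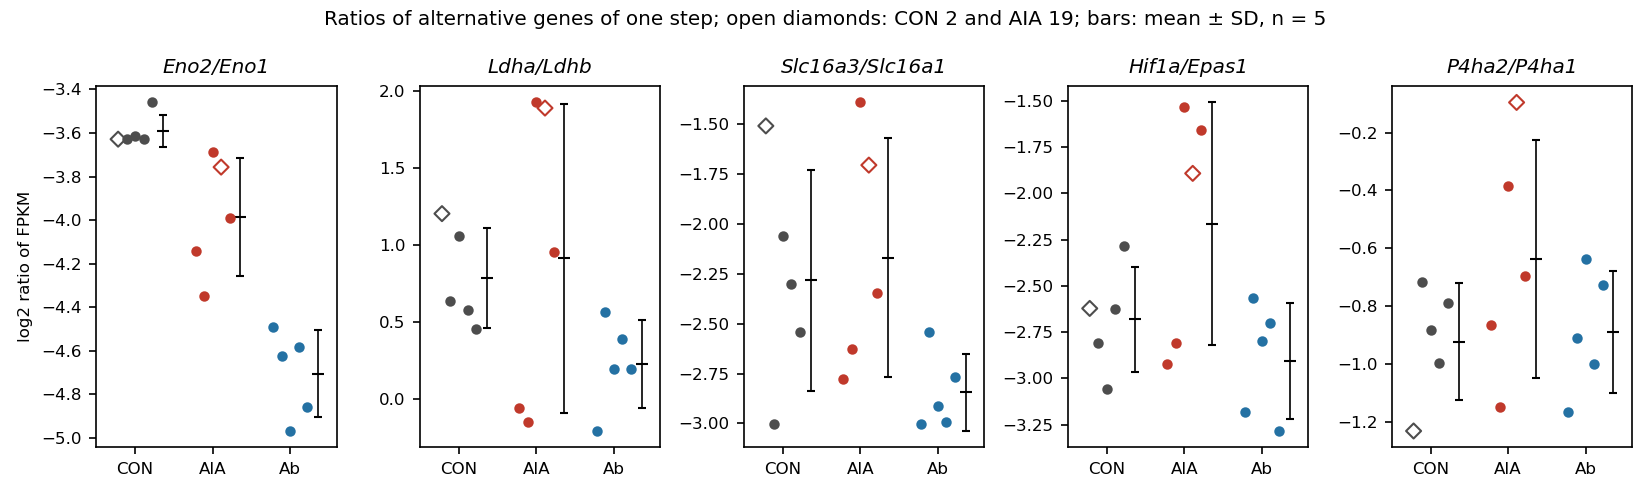
Log2 ratio of FPKM (pseudocount 0.1) between alternative forms of a step, 1 point per library in CON, AIA and Ab, with bars for the mean ± SD of 5 libraries. The Eno2 to Eno1 ratio has means of -3.59 in CON, -3.99 in AIA and -4.70 in Ab, with no overlap of the libraries.

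Promoter sequence is shown for the 5 members (14.7% of 34) whose Ab and CON libraries did not overlap, against 9.54% of all genes tested. Ldhb and Pdk1 were higher, against 4.26% of all genes, and Eno2, P4ha1 and P4ha2 lower, against 5.27%. In AIA against CON and in Ab against AIA 0 members were without overlap, against 6.42% and 3.81% of all genes. The letters ACGTG and GCGTG, the core of the hypoxia response element to which HIF binds, were searched on both strands (CACGT and CACGC on the strand printed), and overlapping matches were each counted. Capitals mark the matches, and each sequence is the 250 bases before the start of transcription, 5′ to 3′ on the strand of the gene, from RefSeq (GRCr8).
Eno2, chr4:159267221-159267470 (minus strand): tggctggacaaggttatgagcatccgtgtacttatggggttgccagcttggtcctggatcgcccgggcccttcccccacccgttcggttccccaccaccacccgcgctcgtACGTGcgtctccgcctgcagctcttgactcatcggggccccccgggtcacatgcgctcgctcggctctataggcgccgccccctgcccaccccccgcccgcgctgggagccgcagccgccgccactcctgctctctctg
Ldhb, chr4:177177409-177177658 (minus strand): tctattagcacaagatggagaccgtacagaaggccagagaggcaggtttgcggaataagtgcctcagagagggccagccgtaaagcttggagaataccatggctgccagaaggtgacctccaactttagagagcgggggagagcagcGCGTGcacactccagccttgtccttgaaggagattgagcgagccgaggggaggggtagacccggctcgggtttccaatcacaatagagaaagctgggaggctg
Pdk1, chr3:77113264-77113513 (plus strand): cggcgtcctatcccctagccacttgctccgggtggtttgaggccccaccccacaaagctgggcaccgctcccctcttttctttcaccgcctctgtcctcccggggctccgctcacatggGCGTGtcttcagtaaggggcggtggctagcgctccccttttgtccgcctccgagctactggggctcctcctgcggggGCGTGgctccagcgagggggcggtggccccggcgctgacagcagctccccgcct
P4ha1, chr20:27844796-27845045 (plus strand): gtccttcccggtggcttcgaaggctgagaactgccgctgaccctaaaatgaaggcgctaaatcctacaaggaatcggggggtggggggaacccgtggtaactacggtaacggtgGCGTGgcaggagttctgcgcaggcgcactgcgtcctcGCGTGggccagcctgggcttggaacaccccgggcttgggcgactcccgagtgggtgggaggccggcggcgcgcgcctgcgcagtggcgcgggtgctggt
P4ha2, chr10:38743644-38743893 (plus strand): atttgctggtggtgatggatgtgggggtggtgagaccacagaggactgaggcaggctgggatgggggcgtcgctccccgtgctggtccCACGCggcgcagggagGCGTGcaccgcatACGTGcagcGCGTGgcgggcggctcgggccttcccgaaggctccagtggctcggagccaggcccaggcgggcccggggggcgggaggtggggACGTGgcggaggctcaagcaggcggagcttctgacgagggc
Each of the 5 holds a match, 1 in Eno2 and in Ldhb, 2 in Pdk1 and in P4ha1, and 5 in P4ha2. The match nearest to the start ends 135 bases before it in Eno2, 99 in Ldhb, 50 in Pdk1, 95 in P4ha1 and 37 in P4ha2. Genes that were higher and genes that were lower in Ab both hold the letters. In windows of 300 bases, from 250 before to 50 after the start, 26 of 37 windows of 33 members held a match (70.3%), against 41.6% of all 33469 windows and 45.8% of 21851 windows of protein-coding genes. A match describes these letters and is not a measured binding site. The members were picked partly for response to low oxygen, and the other windows were not matched for base composition. The difference in share was not tested.

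Of 68 other genes of glycolysis and hypoxia, all 68 were in the table and 59 were tested. In AIA against CON 2 were called, both lower (3.39%, against 3.45% of all genes): Stc2, the secreted glycoprotein stanniocalcin 2, at -1.42 ± 0.33 SE (edgeR adjusted p = 0.0154), and Zfp395 at -0.49 ± 0.13 SE (adjusted p = 0.0286). In Ab against AIA 3 rose (5.08%, against 1.83% of all genes) and 1 fell (1.69%, against 3.99%). Slc2a4, the insulin-responsive glucose transporter GLUT4, rose by 0.92 ± 0.23 SE (edgeR adjusted p = 0.0333). Gbe1, the glycogen branching enzyme, rose by 0.49 ± 0.14 SE (adjusted p = 0.0478) and Cited2, which competes with HIF for its coactivator, by 0.63 ± 0.16 SE (adjusted p = 0.0355). Hk3, a hexokinase of myeloid cells, fell by 1.04 ± 0.29 SE (adjusted p = 0.0488). In Ab against CON 1 rose (1.69%, against 3.38%) and 1 fell (1.69%, against 4.66%): Gys1, glycogen synthase, at 0.69 ± 0.19 SE (edgeR adjusted p = 0.0336) and Pdk3, a kinase of pyruvate dehydrogenase like Pdk1, at -0.64 ± 0.14 SE (adjusted p = 0.013). Without CON 2 and AIA 19, Gys1 and Pdk3 were still called (adjusted p = 0.0447 and 0.0349), and none of the others was. The medians of the 59 genes were 0.01, -0.05 and -0.02, and -0.04, 0.08 and 0.05 without both libraries. Angptl4, whose product the antibody is named for and which is a known target of HIF, stood at 149 to 263 CPM in CON, 155 to 586 CPM in AIA and 289 to 554 CPM in Ab, with 1.01 ± 0.31 SE in Ab against CON (edgeR adjusted p = 0.0601).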

How the data were processed

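The authors deposited whole-number counts per gene symbol and FPKM values, 1 column per library. FPKM equalled the deposited count over a fixed gene length and the library total to within 0.1% in all 291027 values above 0. Per the labels' protocols, mRNA libraries were made from 1.3 ug of total RNA with a SMARTER kit. Mouse builds, GRCm38 and mm10, are named in the submitters' processing notes, although the symbols are of rat; the sources used here name no aligner, counter or strandedness, so genes are named by symbol and no coordinates are taken from the files. Samples were grouped by title, and p-values measure the spread between libraries, each taken as 1 rat. Counts were tested in R 4.3.3 with edgeR 4.0.16 (filterByExpr, TMM, quasi-likelihood F test, 1 fit of 15 libraries); 7296 genes were removed, and adjustment was by Benjamini-Hochberg over the 16046 left, at a threshold of 0.05. The fit was also run on counts simulated from its own means and spreads. These held no muscle libraries and no split of the AIA group, so that run does not test the calls given here. SEs follow from the F statistic. Log2 CPM has a prior count of 2. Ratios use log2(FPKM + 0.1), on which low genes change less. Marker scores are mean log2 CPM relative to CON. Alternatives were DESeq2 1.42.0, limma 3.58.1 on log2 FPKM, RLE scaling, no filter, fits of 2 groups and omitted libraries. Library depths were within 31172215 to 34084345 counts. Members and lists were chosen with earlier results of these data known. Values by library are given for members called or without overlap in any comparison, for Hif1a, Slc2a1, Pfkfb3 and Ldha, for the 6 members most moved in AIA against CON by omitting CON 2 and AIA 19, and for Pfkl and Car9, which were added after their values were seen.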

Additional observations from a re-analysis of the deposited data

Results flagged for a closer look

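A library was marked where its gap to the nearest of the other 4 libraries of its group exceeded 0.71 of the range of the group (Dixon's value for 5 samples); chance marks about 1 in 20 groups, and 8 of 102 group and gene pairs were marked. Pfkm was marked in CON 2 at 173 CPM (others 43.3 to 55.3) and in AIA 19 at 241 CPM (others 33.1 to 42.3), both libraries with skeletal muscle genes, and in Ab 10 at 48.3 CPM (others 37.6 to 40.2). Ab 3 was the low library for Pfkl at 73.0 CPM (others 95.5 to 102), for Eno1 at 307 CPM (others 429.8 to 479) and for Pkm at 198 CPM (others 259 to 275), 3 enzymes of glycolysis in 1 library. Eno2 was high in CON 11 at 45.3 CPM (others 33.9 to 35.4); without that library it was still called lower in Ab against CON. P4ha2 was high in CON 17 at 54.5 CPM (others 39.0 to 42.3).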

How the results depend on the processing

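Leaving out CON 2 and AIA 19 took the members called higher and lower from 1 and 0 to 0 and 0 in AIA against CON, from 1 and 1 to 0 and 0 in Ab against AIA, and from 0 and 2 to 0 and 1 in Ab against CON; other pathway genes called went from 2, 4 and 2 to 0, 0 and 2. All genes called went from 1370, 935 and 1291 to 572, 220 and 757. DESeq2 called 1962, 1886 and 2012 genes, with 2 members higher in AIA against CON, 4 lower in Ab against AIA and 4 higher in Ab against CON, and 7 and 5 other pathway genes in the comparisons with Ab. Fitting only the groups compared gave 0 members higher in AIA against CON, 0 higher and 0 lower in Ab against AIA and 3 higher in Ab against CON, with 0 and 4 other pathway genes in the comparisons with Ab. Without the filter on low counts 0 members were higher in Ab against AIA and 2 other pathway genes were called. With limma 0 members were higher in AIA against CON at either pseudocount, and other pathway genes numbered 1 (pseudocount 1) or 2 (pseudocount 0.1) in Ab against AIA and 1 in Ab against CON at both. RLE scaling changed no count. Omitting 1 library gave 0 to 1 members higher and 0 to 1 lower in AIA against CON, 0 to 4 and 0 to 4 in Ab against AIA, and 0 to 1 and 1 to 2 in Ab against CON; other pathway genes ranged from 1 to 5, 0 to 9 and 1 to 5. No called value changed sign under these alternatives. The isoform ratios did not pass in any fit, but with this number of libraries and tests that is no measure of stability. The cause of these differences was not tested. No paired analysis was possible because the groups share no replicate numbers. Few counts limit Car9, Aldoa and Ankrd37, and the Aldoa row cannot be read as the level of aldolase A.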
